A study of Mus musculus with 3 samples.

Results

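Egr1, Egr2, Egr3, Nr4a1, Nr4a2, Nr4a3, Arc, Ier2, Ier5 and Btg2 were followed across the cell classes of the mouse hypothalamus after heat exposure. These 10 immediate early genes were taken by symbol from the 32285 genes in the count tables, and all 10 were present. The study held 3 single-cell RNA libraries, all from hypothalami of male mice 8 weeks old. The QS library came from mice recovering after the heat exposure, the HS library from heat-exposed mice, and the PF library from controls with food intake matched to HS. The sources used here do not give the strain, the number of mice behind each library, the length of recovery or the time of day. Each condition had 1 library, so no test between conditions was possible and no p-value is given. "Higher" and "lower" describe these libraries.

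Immediate early genes are transcribed within minutes of a stimulus, without new protein synthesis, when kinases activate factors such as SRF and CREB that already sit on their promoters. EGR proteins are zinc finger transcription factors, NR4A proteins are orphan nuclear receptors that act without a known hormone, and Arc shapes synapses by driving receptor uptake at the membrane. Ier2 and Ier5 encode small nuclear proteins of the immediate early response, and Btg2 encodes an antiproliferative protein that recruits the CCR4-NOT deadenylase to messenger RNA. In the brain these genes are used as marks of recent neuronal activity, and many of them are also induced in glia and vessel cells when tissue is dissociated with enzymes. The tissue here was digested with collagenase II and broken up mechanically, per the labels' protocols.

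The promoters of 5 genes are shown because they hold the cyclic AMP response element (CRE, TGACGTCA), through which CREB acts on this kind of gene, or its core TGACG. Whether these elements had a part in the levels given below was not tested. The sequences are 300-base windows around RefSeq start sites on GRCm38.p6, read 5′ to 3′ along the gene's strand. Capitals mark the CRE, its cores on either strand (TGACG or CGTCA), and in Egr2 the CArG box bound by SRF.
Btg2, chr1:134079106-134079405 (minus strand): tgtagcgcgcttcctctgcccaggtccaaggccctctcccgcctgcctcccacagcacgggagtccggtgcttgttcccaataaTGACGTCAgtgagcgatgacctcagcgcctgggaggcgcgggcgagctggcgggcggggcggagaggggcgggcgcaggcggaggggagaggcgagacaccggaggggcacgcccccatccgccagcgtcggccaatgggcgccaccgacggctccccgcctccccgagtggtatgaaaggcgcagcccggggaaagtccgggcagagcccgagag
Nr4a1, chr15:101266596-101266895 (plus strand): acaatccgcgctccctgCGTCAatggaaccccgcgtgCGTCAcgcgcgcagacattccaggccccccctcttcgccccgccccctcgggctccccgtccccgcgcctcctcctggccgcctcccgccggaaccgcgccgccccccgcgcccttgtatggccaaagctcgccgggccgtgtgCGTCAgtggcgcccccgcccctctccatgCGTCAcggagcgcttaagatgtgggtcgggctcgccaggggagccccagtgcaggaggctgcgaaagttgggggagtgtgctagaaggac
Nr4a2, chr2:57123954-57124253 (minus strand): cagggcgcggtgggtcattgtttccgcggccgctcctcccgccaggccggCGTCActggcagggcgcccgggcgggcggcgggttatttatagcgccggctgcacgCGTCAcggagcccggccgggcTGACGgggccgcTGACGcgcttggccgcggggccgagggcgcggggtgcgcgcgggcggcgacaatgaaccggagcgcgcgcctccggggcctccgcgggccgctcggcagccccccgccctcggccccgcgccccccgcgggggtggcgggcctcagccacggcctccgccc
Nr4a3, chr4:48045055-48045354 (plus strand): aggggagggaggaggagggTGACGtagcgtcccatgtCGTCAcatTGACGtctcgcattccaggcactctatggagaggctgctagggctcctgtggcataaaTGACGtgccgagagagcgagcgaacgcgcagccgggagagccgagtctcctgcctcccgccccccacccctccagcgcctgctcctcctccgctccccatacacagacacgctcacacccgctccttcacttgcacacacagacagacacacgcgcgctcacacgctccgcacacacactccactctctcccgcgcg
Egr2, chr10:67537619-67537918 (plus strand): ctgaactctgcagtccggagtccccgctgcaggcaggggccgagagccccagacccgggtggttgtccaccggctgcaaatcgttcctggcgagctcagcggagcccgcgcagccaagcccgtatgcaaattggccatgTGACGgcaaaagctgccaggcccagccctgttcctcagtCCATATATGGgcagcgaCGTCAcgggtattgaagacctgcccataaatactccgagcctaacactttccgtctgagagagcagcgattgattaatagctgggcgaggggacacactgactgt

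RefSeq promoter windows were matched for 6 of the 10 genes, those shown and Ier5, and for Egr2 1 of its 5 windows is printed. The full CRE was found in Btg2 and in 2.03% of the 27025 genes in the table, counting a gene when any of its windows matched. The core was found in 5 of the 6 genes, the exception being Ier5, and in 23.0% of all genes; each full CRE also holds it. Nr4a1, Nr4a2 and Nr4a3 held 4 cores each. A CArG box was found in Egr2 and in 1.81% of genes. An EGR site (GCGGGGGCG or GCGTGGGCG) was found in Nr4a1 and in 3.93% of genes. The NR4A response element AAAGGTCA was found in none of the 6 and in 1.70% of genes. Both strands were searched, and a match is a description of the letters, not of binding.

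On the GRCm38 annotation, Egr1 (ENSMUSG00000038418) lies at chr18:34859823-34864984 on the plus strand. The other EGR genes lie at chr10:67535475-67542188 (Egr2, ENSMUSG00000037868, plus strand) and chr14:70077203-70082614 (Egr3, ENSMUSG00000033730, plus strand). The NR4A genes lie at chr15:101254269-101274795 (Nr4a1, ENSMUSG00000023034, plus strand), chr2:57106830-57124003 (Nr4a2, ENSMUSG00000026826, minus strand) and chr4:48045153-48086447 (Nr4a3, ENSMUSG00000028341, plus strand). Arc (ENSMUSG00000022602) lies at chr15:74669083-74672570 and Ier2 (ENSMUSG00000053560) at chr8:84661331-84662852, both on the minus strand. Ier5 (ENSMUSG00000056708, chr1:155096361-155099636) and Btg2 (ENSMUSG00000020423, chr1:134075170-134079120) share chromosome 1 and the minus strand. All are protein-coding.

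The libraries held 11720 (QS), 12510 (HS) and 12836 (PF) barcodes with 93295920, 103891747 and 100727912 unique molecular identifiers (UMIs, each standing for 1 captured RNA molecule). After filters and removal of called doublets, 10782 QS, 11630 HS and 11858 PF cells were kept. Their median depth was 6162 UMIs in QS, 6298 in HS and 6143 in PF. QS shared 40 barcodes with HS and 51 with PF, and HS shared 37 with PF. Cells were put in a class when they expressed markers of 1 class and few of any other, which placed 9179, 9475 and 9782 cells. Cells that matched more than 1 class were left out, 1197 in QS, 1674 in HS and 1579 in PF, of which 298, 379 and 281 matched the ependymal list best. The 7 classes compared had at least 100 cells in every library: endothelial-like, microglia-like, astrocyte-like, ependymal-like, oligodendrocyte-like, pericyte-like and vascular smooth muscle-like. No class had a marker of another class among its 10 leading genes. Neuron-like cells were few, 50 in QS, 26 in HS and 24 in PF.

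Levels are CPM, the UMIs of a gene summed over the cells of 1 class and library and scaled to the same total for every class. A gene was measured in a class when it had at least 60 UMIs over the 3 libraries, which held for 65 of the 70 pairs of gene and class. Egr2, Egr3, Nr4a3 and Arc fell under that minimum in astrocyte-like cells, and Arc did in pericyte-like cells. A pair was called higher or lower when the ratio of CPM was at least 1.5 either way and its exact 95% interval left out 1. These intervals cover counting error only, and they do not include the spread between mice.

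**Figure D1:**
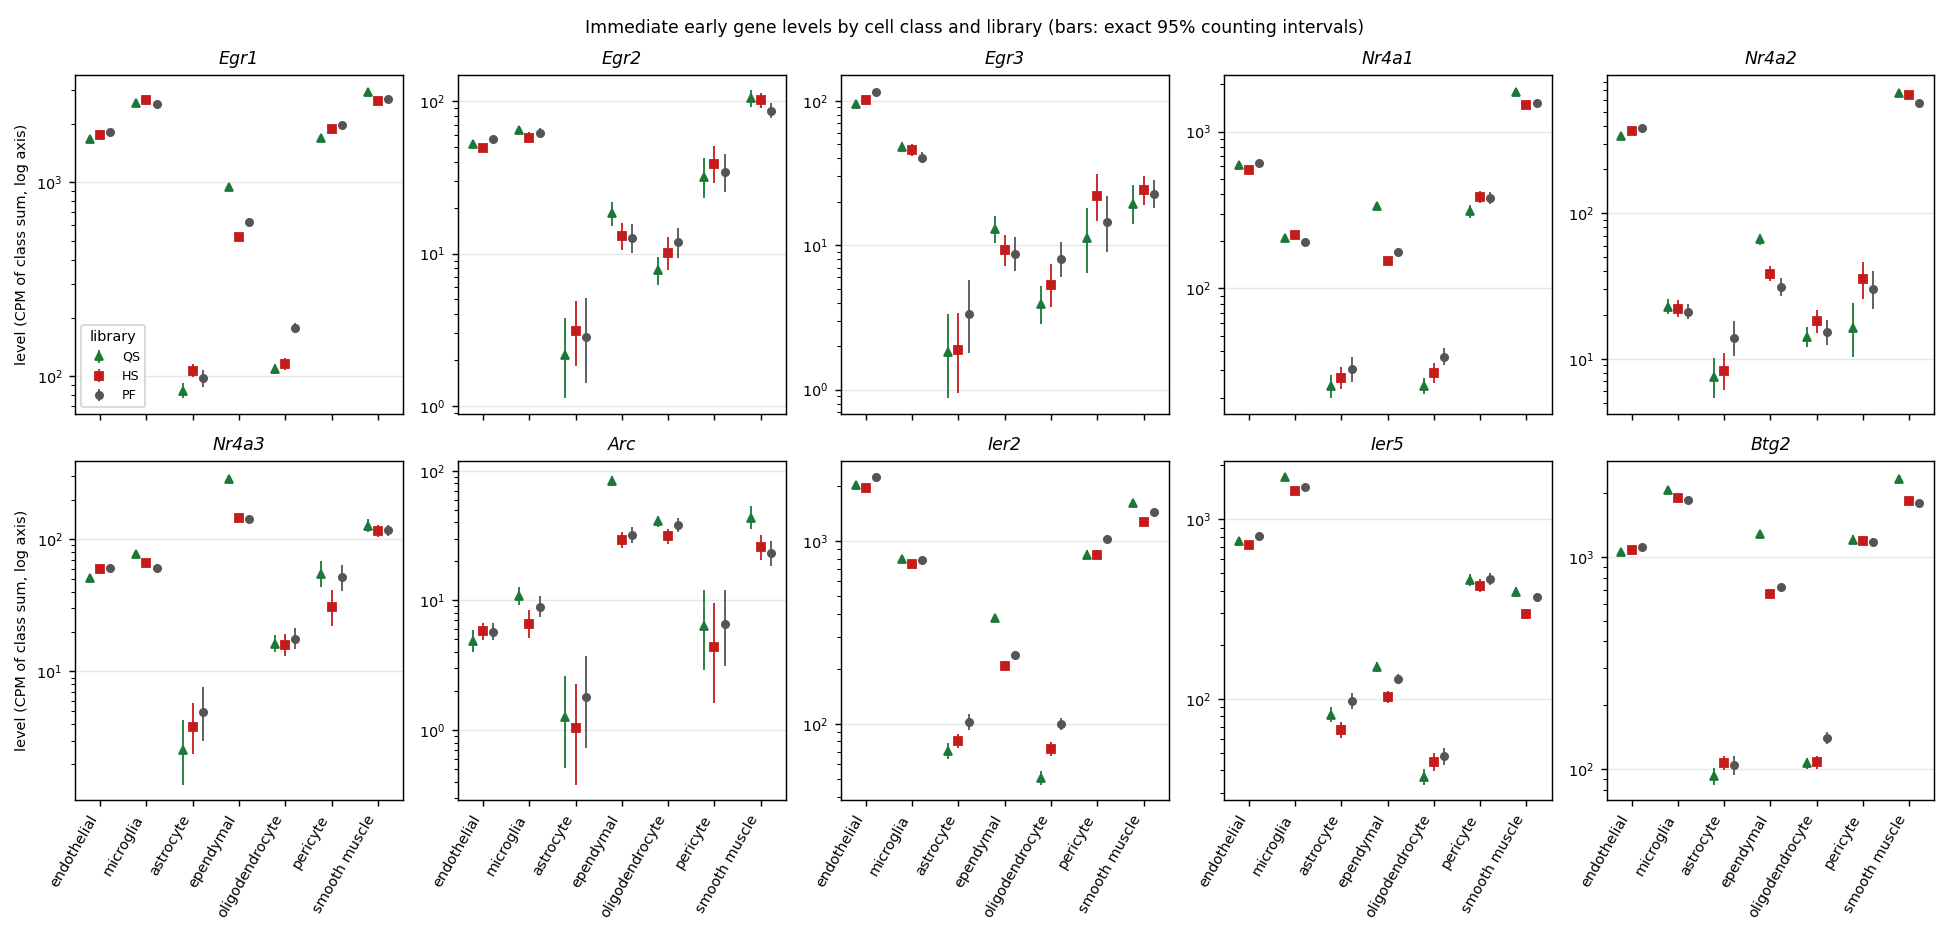
Level of each gene (CPM, log axis) in 7 cell classes, with QS as triangles, HS as squares and PF as circles, left to right, and exact 95% counting intervals. Among these classes, ependymal-like cells are the one where the QS point stands above both other libraries for all 10 genes, and astrocyte-like and oligodendrocyte-like cells hold the lowest levels of most genes.

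The genes differed in which of the 7 compared classes had their highest level. Among these 7, Egr1, Egr2, Nr4a1, Nr4a2 and Btg2 had their highest mean level over the libraries in vascular smooth muscle-like cells, Egr3 and Ier2 in endothelial-like cells, Ier5 in microglia-like cells, and Nr4a3 and Arc in ependymal-like cells. For Egr1 the order was vascular smooth muscle-like (2638 to 2931 CPM over the 3 libraries), microglia-like (2549 to 2670), pericyte-like (1702 to 1989), endothelial-like (1678 to 1832), ependymal-like (522 to 946), oligodendrocyte-like (109 to 178) and astrocyte-like cells (84.4 to 107). The ranges of the leading pair overlapped, as did those of pericyte-like and endothelial-like cells. Nr4a1 stood apart at its top, with 1483 to 1788 CPM in vascular smooth muscle-like cells against 572 to 631 in endothelial-like cells. Nr4a2 had the same leading pair, at 570 to 669 and 337 to 388 CPM, with the other 5 compared classes at or under 66.1 CPM. For Arc the ependymal-like (29.3 to 83.5 CPM), oligodendrocyte-like (31.2 to 40.7) and vascular smooth muscle-like (23.0 to 43.5) ranges overlapped.

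Of these 7 classes, astrocyte-like cells had the lowest mean level for 8 of the 10 genes, and oligodendrocyte-like cells had it for Ier2 and Ier5. Free RNA in droplet data gives every cell a low level of genes that other cells make, so these floors were set beside the level over all cells of the library. In astrocyte-like cells the 10 genes stood at 3.4% to 13.4% of the library-wide level. In oligodendrocyte-like cells Egr1, Egr3, Nr4a1, Nr4a2, Ier2, Ier5 and Btg2 stood at 4.95% to 13.01%, Egr2 and Nr4a3 at 18.9% to 27.6%, and Arc at 187% to 282%. In ependymal-like cells Nr4a3 stood at 221% to 385% and Arc at 236% to 384% of the library-wide level.

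The first comparison asks what differed in recovery, QS against PF. Of the 65 measured pairs of these genes, 8 were higher and 7 lower in QS, where 1.72% and 3.62% of all 82601 measured pairs of gene and class were. Ependymal-like cells, the ciliated cells that line the ventricles, held 7 of the 8 higher calls, and oligodendrocyte-like cells, the makers of myelin, held 5 of the 7 lower ones. Set against HS, QS had 10 pairs higher and 2 lower, where 2.38% and 3.85% of all 82610 pairs were. The 7 genes called in ependymal-like cells were the same in both comparisons, which share the QS library. HS against PF gave 0 higher and 3 lower pairs, where 1.73% and 1.92% of all pairs were. The comparisons of QS and HS with PF share the PF library, and their values stand side by side below.

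**Figure D2:**
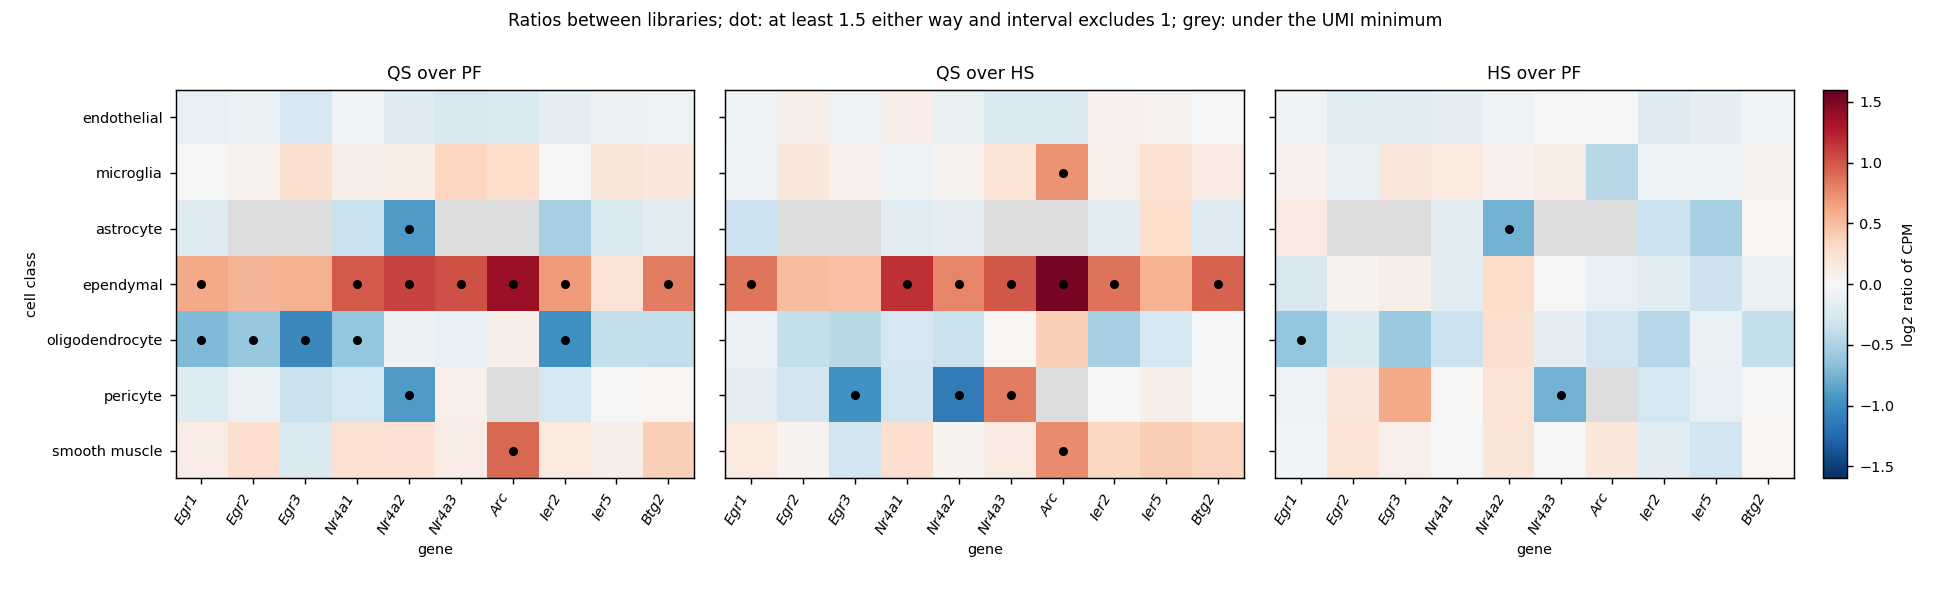
Log2 ratio of CPM for each gene and cell class in QS over PF, QS over HS and HS over PF. Dots mark pairs at least 1.5-fold apart with an interval that leaves out 1, grey marks pairs under the UMI minimum, and 7 dots in each QS comparison lie in the ependymal row.

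Ependymal-like cells, of which there were 686 in QS, 755 in HS and 749 in PF, had all 10 genes at a higher level in QS than in either other library. The median log2 ratio over the 10 genes was 0.76 for QS over PF and 0.86 for QS over HS, against -0.03 over all genes in each case, and -0.12 for HS over PF, against 0.00. In this class 1.86% of all 13268 genes were called higher for QS over PF and 2.48% of 13269 for QS over HS.

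Among the EGR factors, Egr1 had 946 CPM in QS, 522 in HS and 623 in PF ependymal-like cells. Its QS over PF ratio was 1.52 (95% interval 1.46 to 1.58), just past the 1.5 threshold, and its QS over HS ratio was 1.81 (1.74 to 1.89). Egr1 is widely used as a marker of activity, and here its HS level was the lowest of the 3. Egr2, which also directs myelination in Schwann cells, had 18.3, 12.9 and 12.6 CPM in QS, HS and PF, and Egr3 had 12.95, 9.30 and 8.75 CPM in the same order. Their QS over PF ratios were 1.46 (1.09 to 1.95) and 1.48 (1.05 to 2.10), under the threshold on counts of 57 to 123 UMIs a library.

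All 3 NR4A receptors were called. Nr4a1, also known as Nur77, had 336 CPM in QS, 149 in HS and 170 in PF, with ratios of 1.97 (1.84 to 2.12) over PF and 2.25 (2.09 to 2.42) over HS. Nr4a2, also known as Nurr1 and needed for midbrain dopamine neurons, had 66.1 CPM in QS, 38.4 in HS and 31.3 in PF. Its ratios were 2.11 (1.78 to 2.50) over PF and 1.72 (1.48 to 2.003) over HS, and it was the only one of the 7 whose HS level was above PF with an interval that left out 1, at a ratio of 1.23 (1.02 to 1.48). Nr4a3 had 288 CPM in QS, 145 in HS and 142 in PF, so that QS stood alone. Its ratios were 2.03 (1.87 to 2.19) over PF and 1.99 (1.85 to 2.15) over HS.

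Arc showed the widest gap of the 10. It had 83.5 CPM (561 UMIs) in QS, 29.3 CPM (217 UMIs) in HS and 31.9 CPM (208 UMIs) in PF ependymal-like cells. The QS over PF ratio was 2.62 (2.23 to 3.08) and the QS over HS ratio 2.85 (2.44 to 3.35), while HS over PF was 0.916 (0.754 to 1.11). The 5% of cells with most Arc UMIs held 48.0% of the class's Arc in QS, 77.4% in HS and 71.2% in PF. The single richest cell held 3.39% in QS, 7.83% in HS and 6.73% in PF. Arc was found in 29.0% of QS, 11.5% of HS and 13.1% of PF cells. The parts held by the richest cells depend on those shares and were not matched for them, so they do not describe a separate difference in spread.

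Ier2 had 381 CPM in QS, 208 in HS and 237 in PF, with ratios of 1.61 (1.51 to 1.71) over PF and 1.83 (1.72 to 1.95) over HS. Btg2 had 1289, 668 and 722 CPM in QS, HS and PF, and its ratios were 1.78 (1.72 to 1.85) over PF and 1.93 (1.86 to 1.997) over HS. Ier5 was the gene with the smallest gap to PF, at 150.2 CPM in QS, 102 in HS and 129 in PF. Its ratios were 1.17 (1.06 to 1.28) over PF and 1.47 (1.33 to 1.61) over HS, both under the threshold.

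Some of these calls rest on how the class was drawn. When the class was taken from unsupervised clusters in place of single-cell markers, the QS over PF ratios of Egr1, Ier2 and Btg2 were 1.33, 1.41 and 1.495 and were no longer called. With every cell weighed equally, Egr1 stood at 1.48 and Ier2 at 1.41 for QS over PF, and Nr4a2 at 1.41 for QS over HS, and these also lost their calls. The calls of Nr4a1, Nr4a3 and Arc held under all 10 alternative settings in both QS comparisons. Settings that only lowered the UMI minimum could not have changed them.

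The difference was also read within clusters of ependymal-like cells, a split chosen after the values were seen. Clusters were computed without these 10 genes and without the other immediate early genes listed further on. Cluster 6 held 62.0% of the class in QS, 68.1% in HS and 58.6% in PF, and cluster 14 held 24.3%, 24.4% and 28.6%. In cluster 6, QS was above PF for 10 of 10 genes, with a median ratio of 1.67, and in cluster 14 for 9 of 10, with a median ratio of 1.86. Nr4a2 was the exception in cluster 14, at 23.3 CPM in QS, 24.9 in HS and 24.1 in PF, while in cluster 6 it had 84.4, 43.2 and 34.6 CPM. Arc was higher in QS in both, at 97.3 CPM in QS, 35.0 in HS and 36.0 in PF in cluster 6 and 54.7, 15.9 and 23.6 CPM in cluster 14. The small cluster 17, with 86 cells in QS, 50 in HS and 92 in PF, had 7 of 10 genes above PF in QS, with a median ratio of 1.21, and 9 of 10 above HS, with a median ratio of 2.08. The genes with QS under PF there were Egr1, Egr3 and Ier2. Egr1 had 613 CPM in QS, 334 in HS and 729.8 in PF. In QS, HS and PF there Egr2 had 5, 0 and 1 UMIs, Egr3 0, 0 and 1, and Arc 7, 0 and 5. The Egr2 and Arc ratios over HS in cluster 17 are thus over 0 UMIs, and Egr3 has no such ratio. The place of Egr3 under PF rests on 1 UMI.

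**Figure D3:**
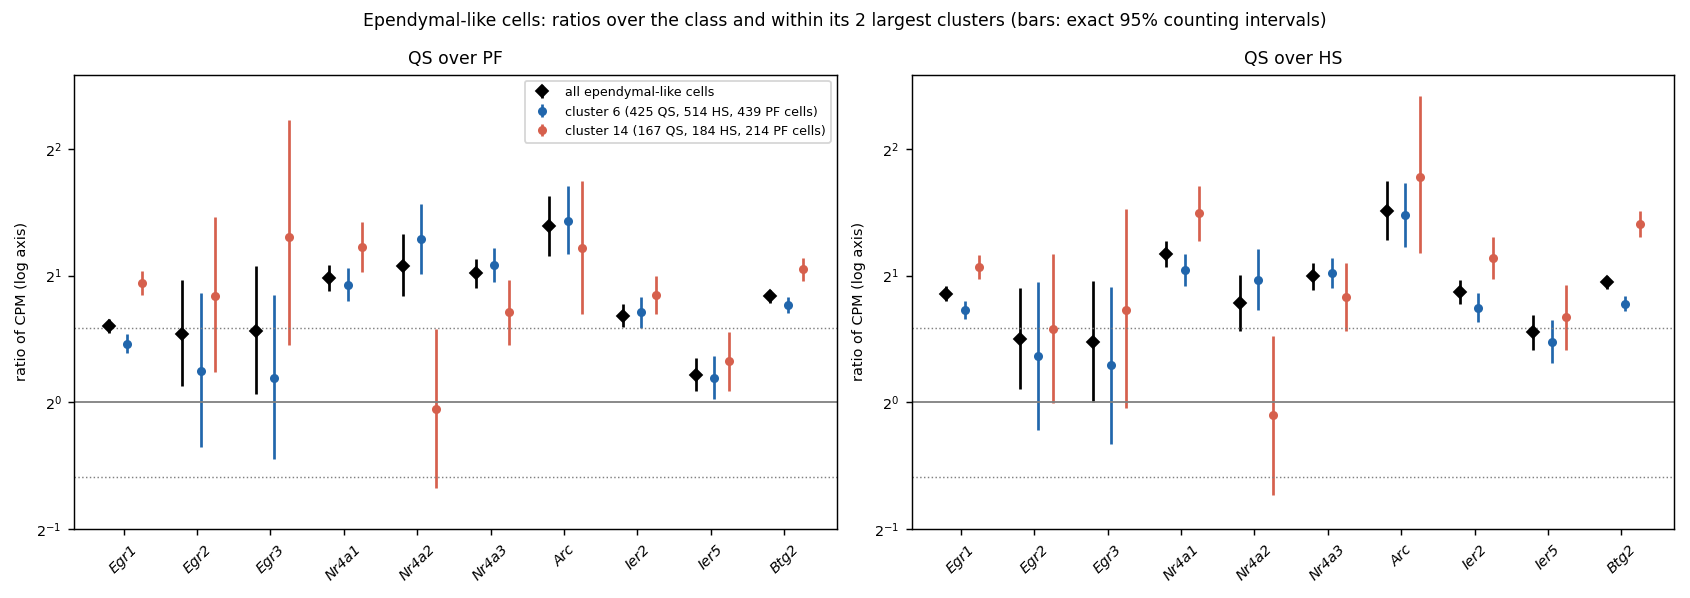
Ratio of CPM in ependymal-like cells for QS over PF and QS over HS (log axis), for the whole class and within clusters 6 and 14, with exact 95% counting intervals. Lines mark 1 (solid) and the 1.5-fold threshold (dotted), and Nr4a2 in cluster 14, at 0.967 for QS over PF, is the point that lies under 1 in each plot.

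The share of cells with a UMI was compared after each cell was thinned to 4000 UMIs, which left out 94 QS, 67 HS and 114 PF ependymal-like cells. Median depths of all cells of the class were 9314, 9066 and 8454 UMIs. Arc was found in 18.4% of QS (exact binomial 95% interval 15.4% to 21.8%), 6.54% of HS (4.81% to 8.65%) and 8.03% of PF cells (6.04% to 10.4%). Unthinned, the shares were 29.0%, 11.5% and 13.1%. Oligodendrocyte-like cells thinned to the same depth had Arc in 14.9% of QS, 10.4% of HS and 13.7% of PF cells. Vascular smooth muscle-like cells had it in 9.93%, 7.59% and 5.78%. Astrocyte-like cells, the class with the lowest mean Arc level of the 7, had an Arc UMI in 0 of 590 QS, 0 of 645 HS and 1 of 404 PF cells. The exact 95% upper limits for astrocyte-like cells were 0.623%, 0.570% and 1.37%. Their median depth before thinning was 3651 UMIs in QS, 3888 in HS and 3542 in PF, and 770, 717 and 601 shallower cells were left out. Nr4a1 was found in 59.0% of QS, 29.2% of HS and 33.9% of PF ependymal-like cells, against 6.10%, 8.37% and 9.16% of astrocyte-like cells. Nr4a3 was found in 46.6%, 22.8% and 26.1% of ependymal-like cells. For Egr1 the shares were 78.9%, 62.9% and 68.0%, and for Btg2 82.4%, 64.4% and 66.8%. Egr2 and Egr3 were found in 3.55% to 5.57% of cells in each library, with overlapping intervals.

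**Figure D4:**
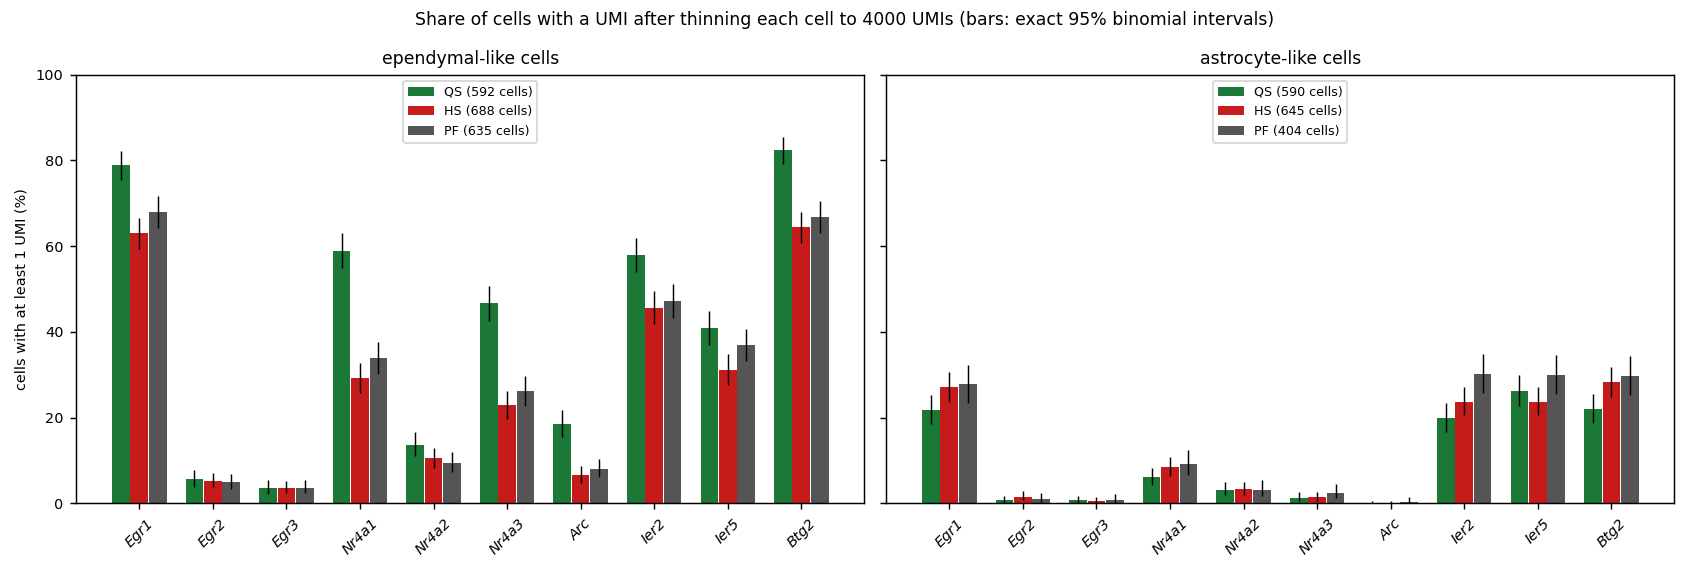
Share of ependymal-like and astrocyte-like cells with at least 1 UMI of each gene after thinning each cell to 4000 UMIs, in QS, HS and PF from left to right, with exact 95% binomial intervals. Arc reaches 18.4% of QS ependymal-like cells, against 6.54% of HS and 8.03% of PF cells, and is nearly absent from astrocyte-like cells.

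Other genes differed in these cells as well. The 16 genes linked to tissue dissociation, none of them among the 10, had 8 members called higher and 0 lower for QS over PF, and 12 higher and 0 lower for QS over HS. Among all genes of this class, 1.86% were called higher for QS over PF and 2.48% for QS over HS. All 16 of the dissociation-linked genes had a QS level above PF. Their summed level was 17677 CPM in QS, 10540 in HS and 12213 in PF ependymal-like cells. Endothelial RNA differed the other way, and the 8 endothelial markers summed to 139 CPM in QS, 198 in HS and 246 in PF, with 8 of 8 lower in QS than in PF and none at 0. The 8 smooth muscle markers summed to 357, 294 and 405 CPM, and the 5 erythrocyte markers to 45.3, 21.7 and 25.5 CPM in QS, HS and PF. The 8 microglia markers summed to 147, 173 and 184 CPM and the 8 astrocyte markers to 1089, 1170 and 1036 CPM in the same order. The part that dissociation played in the result was not tested, and the handling of each library cannot be told apart from its condition.

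Oligodendrocyte-like cells showed the opposite direction, at much lower levels. There were 1183 in QS, 804 in HS and 864 in PF, and 5 of the 10 genes were called lower for QS over PF, in a class where 4.75% of all 12031 genes were. The median log2 ratio over the 10 genes was -0.50 for QS over PF and -0.32 for HS over PF, against -0.01 and -0.03 over all genes. Egr1 had 109 CPM in QS, 116 in HS and 178 in PF, so QS and HS stood together under PF. Its ratios were 0.611 (0.564 to 0.663) for QS over PF and 0.650 (0.593 to 0.713) for HS over PF, in a class where 2.53% of genes were called lower for HS over PF. Ier2 had 50.5, 72.7 and 99.8 CPM in QS, HS and PF, with a QS over PF ratio of 0.506 (0.451 to 0.567).

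Egr2, Egr3 and Nr4a1 were the other 3 called lower in QS oligodendrocyte-like cells. Egr2 had 7.75, 10.1 and 11.8 CPM, Egr3 had 3.92, 5.35 and 8.04 CPM and Nr4a1 had 23.9, 28.9 and 36.7 CPM in QS, HS and PF. Their QS over PF ratios were 0.655 (0.477 to 0.901), 0.488 (0.319 to 0.741) and 0.650 (0.545 to 0.777). Arc was not called, at 40.7 CPM in QS, 31.2 in HS and 38.1 in PF, a QS over PF ratio of 1.07 (0.915 to 1.25). Nr4a2 and Nr4a3 had ratios of 0.934 (0.723 to 1.21) and 0.914 (0.720 to 1.16), and Ier5 and Btg2 of 0.768 (0.661 to 0.891) and 0.761 (0.698 to 0.830).

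In the same oligodendrocyte-like cells the 8 endothelial markers summed to 141 CPM in QS, 215 in HS and 259 in PF, with 8 of 8 lower in QS and none at 0. The QS over PF ratio of that sum was 0.545 (0.509 to 0.584). Other marker lists differed from it. The 8 microglia markers had a QS over PF ratio of 0.753 (0.697 to 0.813), with 7 of 8 lower in QS. The 8 astrocyte markers had a ratio of 1.02 (0.912 to 1.13), with 5 of 8 lower. The 8 smooth muscle markers had a ratio of 0.433 (0.391 to 0.479), and the 5 erythrocyte markers summed to 58.8 CPM in QS, 30.4 in HS and 106 in PF. The 16 dissociation-linked genes had 10 members lower and 0 higher for QS over PF, where 4.75% of all genes were lower. Their summed levels were 5128 CPM in QS, 5565 in HS and 6445 in PF. The part of free RNA in the lower levels was not tested. With the library-wide profile subtracted at 5% of each class sum, Ier2 had a QS over PF ratio of 0. That value was fixed by the setting, because Ier2 stood at 4.95% of the library-wide level in QS, under the 5% taken away. With every cell weighed equally, Egr1 (0.714), Egr2 (0.774) and Nr4a1 (0.671) were no longer called lower for QS over PF, nor was Egr1 for HS over PF (0.684). From clusters, Egr1 for HS over PF was 0.729 and was not called.

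**Figure D5:**
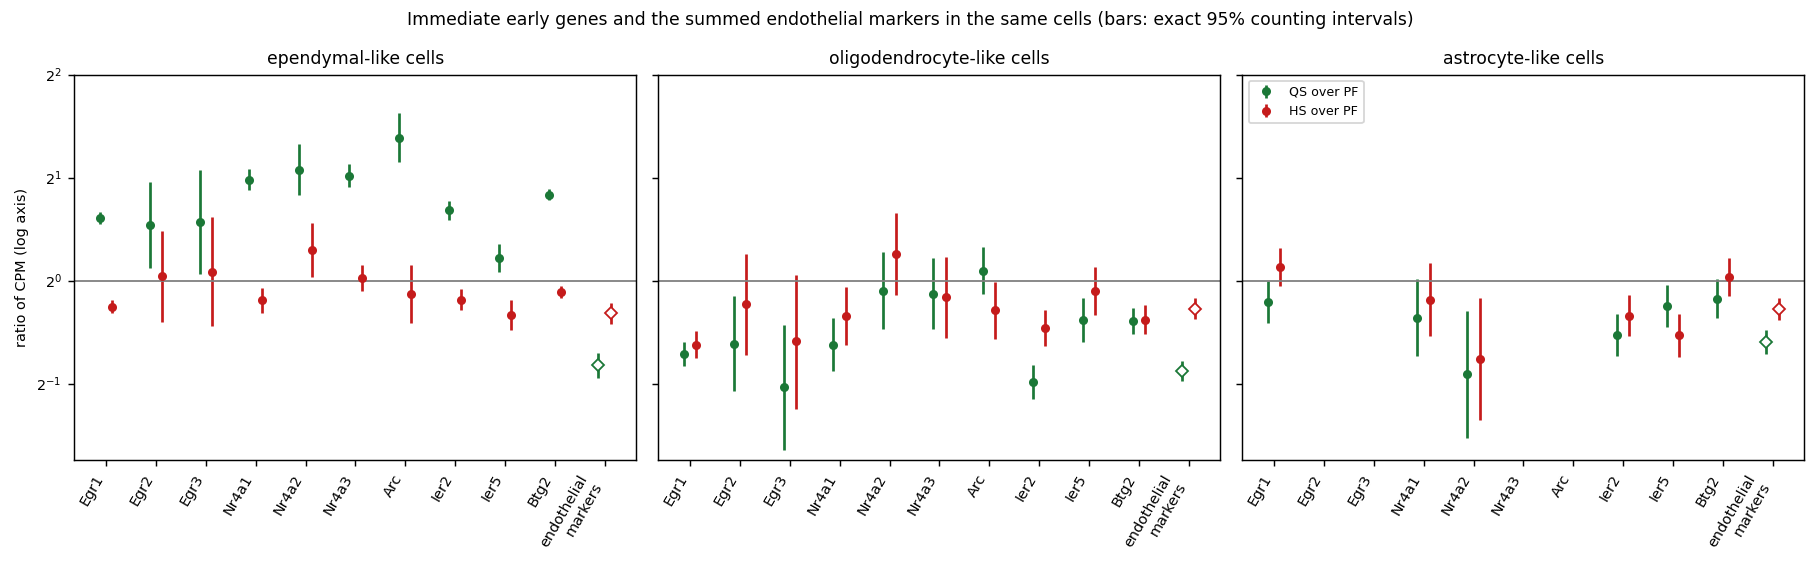
Ratio of CPM (log axis) for QS over PF and HS over PF in ependymal-like, oligodendrocyte-like and astrocyte-like cells, with exact 95% counting intervals; circles are measured genes and open diamonds the sum of 8 endothelial markers. For QS over PF the endothelial markers stand at 0.565, 0.545 and 0.662, under 1 in all 3 classes, while the 10 genes stand above 1 in ependymal-like cells.

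Astrocyte-like cells had 6 of the genes measured, all with a QS level under PF. Nr4a2 was called lower in QS and in HS, at 7.44 CPM (41 UMIs) in QS, 8.26 CPM (48 UMIs) in HS and 13.96 CPM (54 UMIs) in PF. The ratios were 0.533 (0.346 to 0.815) for QS over PF and 0.592 (0.393 to 0.889) for HS over PF, in a class where 3.08% and 2.85% of genes were called lower. The level was 4.67% of that over all cells in QS, 4.07% in HS and 6.52% in PF. Endothelial markers there summed to 213 CPM in QS, 266 in HS and 322 in PF. A subtraction at 5% exceeds the level in QS and HS, so it left no Nr4a2 in either. Both calls then ended because the UMIs left were under the minimum, so that setting cannot tell whether the libraries differ. The 5 erythrocyte markers summed to 159 CPM in QS, 56.1 in HS and 1319 in PF astrocyte-like cells, with 5 of 5 lower than PF in QS and in HS and none at 0, and their part was not tested. Cluster 7 held 53.6% of the class in QS and 59.2% in HS but 39.9% in PF, and cluster 8 held 44.9%, 39.1% and 59.4%. Nr4a2 was lowest in QS in each, at 7.02, 7.76 and 10.97 CPM in cluster 7 and 7.64, 9.45 and 17.3 CPM in cluster 8 in QS, HS and PF.

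Vessel wall cells differed by gene. In vascular smooth muscle-like cells (316 in QS, 423 in HS and 508 in PF) Arc had 43.5 CPM (99 UMIs) in QS, 25.9 CPM (83 UMIs) in HS and 23.0 CPM (85 UMIs) in PF. It was called higher in QS at 1.89 (1.40 to 2.56) over PF and 1.68 (1.24 to 2.28) over HS, in a class where 1.36% and 1.97% of genes were. The richest cell held 12.1% of the QS Arc UMIs, and with every cell weighed equally the ratio over HS was 1.33 and not called. The other 9 genes were not called there. Btg2 had the highest ratio of these for QS over PF, at 2336 CPM in QS, 1830 in HS and 1786 in PF, a ratio of 1.31 (1.26 to 1.36). Ier5 had it for QS over HS, at 394 CPM in QS, 299 in HS and 369.9 in PF, a ratio of 1.32 (1.20 to 1.44). The 5 erythrocyte markers summed to 399 CPM in QS, 23.4 in HS and 30.1 in PF in these cells, with 5 of 5 higher in QS than in either and none at 0. Their part in the Arc result was not tested.

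In pericyte-like cells (403 in QS, 393 in HS and 438 in PF) the calls rested on few UMIs. Nr4a2 had 16.2 CPM (23 UMIs) in QS, 35.1 CPM (48 UMIs) in HS and 30.2 CPM (46 UMIs) in PF. It was lower in QS at 0.536 (0.310 to 0.902) over PF, which from clusters was 0.696 and not called, and at 0.461 (0.267 to 0.772) over HS. Nr4a3 was lowest in HS instead, at 54.8 CPM in QS, 30.7 in HS and 51.8 in PF, with a ratio of 0.592 (0.397 to 0.872) for HS over PF and 1.79 (1.21 to 2.66) for QS over HS. From clusters these 2 ratios were 0.738 and 1.27 and neither was called. Egr3 had 11.2 CPM (16 UMIs) in QS, 21.9 CPM (30 UMIs) in HS and 14.4 CPM (22 UMIs) in PF. Its QS over HS ratio of 0.513 (0.261 to 0.971) was 0.599 with every cell weighed equally, where the interval held 1. With free RNA subtracted it was 0.464 and under the UMI minimum, and in neither case was it called. In this class 2.29% of genes were called lower for QS over PF, 3.02% for QS over HS and 1.94% for HS over PF, and 2.42% were called higher for QS over HS. Erythrocyte markers summed to 426 CPM in QS, 40.2 in HS and 45.9 in PF pericyte-like cells, with 5 of 5 higher in QS than in either and 1 of them at 0 in HS. Their part in these results was not tested.

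Endothelial-like and microglia-like cells were the largest classes in QS. In endothelial-like cells, with 3140, 3702 and 3940 cells in QS, HS and PF, none of the 10 was called for QS over PF, where 5.35% of all genes were called either way, nor in the other comparisons. QS was under PF for 10 of 10 with a median log2 ratio of -0.14. Egr1 had 1678 CPM in QS, 1763 in HS and 1832 in PF, and Ier2 had 2026, 1938 and 2240 CPM. In microglia-like cells, with 1649, 1305 and 1640 cells, QS was above PF for 10 of 10 with a median log2 ratio of 0.14. Arc was called there for QS over HS alone, at 10.9 CPM (145 UMIs) in QS, 6.60 CPM (66 UMIs) in HS and 8.96 CPM (114 UMIs) in PF. In this class 1.37% of genes were called higher for QS over HS. The Arc ratio was 1.65 (1.22 to 2.24), against 1.36 with every cell weighed equally and just under 1.5 from clusters, neither of which was called. Ier5, whose highest level among the 7 compared classes was here, had 1714 CPM in QS, 1444 in HS and 1503 in PF.

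Classes under 100 cells in a library are given by level only. In neuron-like cells Arc had 55.3 CPM (33 UMIs) in QS, 44.99 CPM (16 UMIs) in HS and 37.9 CPM (10 UMIs) in PF, and Egr1 had 588, 278 and 443 CPM. In T or NK-like cells Nr4a2 had 473 CPM in QS, 590 in HS and 481 in PF and Nr4a3 had 242, 283 and 468 CPM. In tanycyte-like cells Egr1 had 1554 CPM in QS, 1564 in HS and 800 in PF, from 60, 111 and 39 cells. Of these cells 48.3% in QS, 48.6% in HS and 38.5% in PF fell in the same class from clusters. In fibroblast-like cells Egr1 had 1339 CPM in QS, 3052 in HS and 2679 in PF, from 61, 262 and 269 cells. Border-associated macrophage-like cells had Ier5 at 2692 CPM in QS, 2355 in HS and 2438 in PF, above microglia-like cells in every library. Pituitary-like cells had Arc at 193 CPM (42 UMIs) in HS and 179.6 CPM (25 UMIs) in PF, above every compared class. They were 24 cells in HS and 50 in PF, and QS had 0 such cells. Of these, 8 HS and 33 PF cells lay at the marker cut, and the median depths were 2602 and 997 UMIs. A cluster named pituitary-like held 7 QS, 121 HS and 175 PF cells.

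The other immediate early genes, a list drawn up with earlier results of these libraries known, were counted in the same way. Of the 34 genes, 33 were measured in ependymal-like cells, where 14 were higher and 0 lower for QS over PF and 19 higher and 0 lower for QS over HS. In oligodendrocyte-like cells 15 of 32 were lower and 0 higher for QS over PF, and in astrocyte-like cells 9 of 32 were lower and 0 higher. Among all genes, 1.86% (QS over PF) and 2.48% (QS over HS) were higher in ependymal-like cells. For QS over PF, 4.75% were lower in oligodendrocyte-like and 3.08% in astrocyte-like cells. For HS over PF, 3 of 32 were higher and 0 lower in astrocyte-like cells, where Nr4a2 of the 10 genes was lower. In endothelial-like cells 1 of 33, Egr4, was higher and 0 lower, and none of the 10 was called there. Over all pairs of gene and class, 1.73% were higher for HS over PF. For QS over HS, 10 of 32 were lower in astrocyte-like cells and 3 of 33 in endothelial-like cells. In oligodendrocyte-like cells 3 of 32 were lower, and in pericyte-like cells 3 of 31, with 0 higher in each of these 4 classes. Over all pairs of gene and class, 3.85% were lower for QS over HS. In pericyte-like cells 3.02% of genes were, so the share differs between classes. Cebpd, an inflammation-induced C/EBP factor, had 15.6 CPM in QS, 40.4 in HS and 25.1 in PF astrocyte-like cells. Fosb, a partner of JUN in the AP-1 factor, had 630 CPM in QS, 316 in HS and 393 in PF ependymal-like cells and 96.0, 142 and 213 CPM in oligodendrocyte-like cells. Atf3, a stress-induced factor, had 1122 CPM in QS, 539 in HS and 674 in PF ependymal-like cells. Of the 16 dissociation-linked genes, 9 are also on this list of 34.

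Genes that act upstream of the response, or against it, were counted as well. Over all 7 classes, 1 of 147 pairs of ERK kinases and SRF, CREB and MEF2 factors was higher and 3 were lower for QS over PF. Among the feedback inhibitors of ERK signalling 2 of 72 pairs were higher and 2 lower, among the partners of EGR and NR4A factors 0 of 26 were called, and among the BTG and TOB family and the CCR4-NOT deadenylase 0 of 77 were higher and 1 was lower. Over all genes and classes, 1.72% of pairs were higher and 3.62% lower. These small counts are not read as a result about the lists. Dusp6, an ERK phosphatase induced by ERK itself, had 20.2 CPM in QS, 13.8 in HS and 11.5 in PF ependymal-like cells, a QS over PF ratio of 1.76 (1.32 to 2.36). Nab2, a repressor bound by EGR proteins, had 42.7, 27.1 and 30.3 CPM in QS, HS and PF vascular smooth muscle-like cells, a QS over HS ratio of 1.57 (1.17 to 2.13). It was 1 of 2 higher calls among the 26 partner pairs for QS over HS, with 0 lower, where 2.38% of all pairs were higher; the other was Rxrg in astrocyte-like cells, at 5.81 CPM in QS, 3.098 in HS and 6.72 in PF.

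The genes with the most similar pattern were sought among 7425 genes over 21 points, each a class in a library, by Pearson's r of log2(CPM + 1). The points share libraries and class depths, so r is a description. Among the 10 themselves r lay between -0.24 (Arc and Ier5) and 0.99 (Egr1 and Btg2), values that include the differences between classes. With each class centred, so that only the libraries differ, r lay between 0.14 (Egr3 and Arc) and 0.92 (Nr4a1 and Btg2). Arc and Ier5 then had 0.63. Without centring, the most similar genes for Egr1 were Jun (0.988), Junb (0.985) and Fosb (0.981). For Ier2 they were Ier3 (0.992), Klf4 (0.990) and Furin (0.974). The first gene was Csrnp1 for Egr2 (0.980), Tpm3 for Egr3 (0.970), Rheb for Nr4a1 (0.985), Cenpb for Nr4a2 (0.949), Morf4l2 for Nr4a3 (0.972), Dynll2 for Arc (0.901), Cyba for Ier5 (0.974) and Maff for Btg2 (0.978).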

How the data were processed

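UMI counts per gene and cell were deposited by the authors as filtered 10x matrices, 1 library each for QS, HS and PF. The submitters' processing notes name Cell Ranger 5.0.0, Seurat 3.1.2 and mm10, while the matrix header names version 7.0.1. Cells under 500 UMIs, under 200 genes or over 20% mitochondrial UMIs were dropped, and doublets called by Scrublet in Scanpy 1.11.5 (Python 3.11.15) were removed. A class needed at least 3 markers and 40% of its list, with the next class at most at 60% of that share; 30 QS, 25 HS and 29 PF ependymal-like cells lay at the cut. Counts were summed per class and scaled to CPM. Ratios have exact conditional binomial and levels exact Poisson intervals at 95%. The procedure was tested on simulated data. The genes named from each list were its largest called ratios, and likeness was taken as the 3 highest correlations. The genes and lists were chosen with earlier results of these data known. Clusters were Leiden clusters (resolution 1, 30 components). Splits by cluster, thinned shares and sums of other classes' markers were chosen after seeing the data. The 10 alternatives covered scaling, weighing of cells, the UMI minimum, cell filters, doublets, the marker gate, clusters and free RNA.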

Additional observations from a re-analysis of the deposited data

How the results depend on the processing

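The 30 called ratios were recomputed under 10 alternatives, giving 300 values, of which 0 changed direction. Of the 30 calls, 14 held in every alternative. With every cell weighed equally 10 calls were lost, from clusters 8 and with free RNA subtracted 3, and the other 7 alternatives lost 0. The alternatives that only lowered the UMI minimum kept the same ratios, so they could not lose a call or change its direction. With every cell weighed equally, 4 pairs were lower for QS over PF, against 7. From clusters, 5 pairs were higher for QS over PF, against 8, and 1 was lower for HS over PF, against 3. With free RNA subtracted at 5%, HS over PF had 2 higher pairs, against 0, and 6 lower, against 3, and QS over HS had 5 lower, against 2. Levels near 5% of the library-wide level keep little after that subtraction, so their ratios are set largely by the setting. In astrocyte-like cells Egr1 stood at 6.02% of that level in QS, 7.06% in HS and 5.91% in PF. The part of this in these counts, and the cause of the other changes, were not tested. No paired analysis was possible because each condition had 1 library, and for the same reason no library could be left out. Depth limits Egr2 and Egr3 in ependymal-like and oligodendrocyte-like cells and Nr4a2 in astrocyte-like cells. It also limits Arc in vascular smooth muscle-like and microglia-like cells, and the pericyte-like calls. All of these rest on fewer than 100 UMIs in some or all libraries.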
